A study of Mus musculus with 10 samples.

Results

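The levels of 40 imprinted mouse genes were followed in the cerebral cortex of mice that lack the CREB coactivator *Crtc1*, to see whether the lower level of *Zdbf2* in these mice was shared by other genes read from a single parental allele. Each gene was represented by its brightest probe set among those whose annotation names that gene alone. This gave values for 37 of the 40 genes, out of 18193 genes measured in the same way. The 3 others have no value here. *H19* is named on 1 probe set that also names *Mir675*, and *Begain* and *Zrsr1* are named on none in the annotation used. The fall of *Zdbf2* was already known when the genes were chosen, so its own value is a description, and the question lies with the other 39 genes. Those genes and the lists below were also chosen with earlier results of these data known, so the shares called among them are descriptions too.

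The *Crtc1*-/- group held 5 adult female mice with a constitutive knockout of *Crtc1*, and the WT group held 5 adult female littermates. All 10 mice were C57BL/6N, untreated and 2 months old. Cortical RNA of each mouse was hybridized to its own GeneChip Mouse Genome array (Affymetrix), and every level below is a log2 array value, normalized by the authors. A level cannot be compared between probe sets, and a difference between genotypes is given as the log2 fold change (log2 FC), *Crtc1*-/- minus WT. The tissue is bulk cortex and the knockout is not limited to a cell type, so fewer cells of a type and less RNA per cell cannot be told apart.

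Most imprinted genes carry a mark, set in the germ line as DNA methylation at a control region. It tells the paternal from the maternal copy, and in most of these genes a single copy is then transcribed. They lie mostly in clusters in which one control region acts on several genes, some read from the paternal and some from the maternal copy. Many are highly expressed in brain, where a few switch the active copy between neurons and other cells. As a textbook rule, paternally expressed genes tend to promote growth and maternally expressed genes to restrain it. The probe sets read the RNA of both copies together, so the allele given for each gene is background knowledge and was not measured.

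Most imprinted genes differed little between the genotypes. The median log2 fold change of the 37 measured genes was 0.003, against −0.003 over all 18193 genes, and 18 of the 37 had a negative value and 19 a positive one. The difference was under 0.1 in size for 26 of the 37 genes (70.3%), against 78.0% of all genes. At an adjusted p under 0.05 from limma, *Zdbf2* and *Usp29* were lower in *Crtc1*-/- mice and *Cdkn1c* was higher, and the other 34 did not pass. That is 2 of 37 lower (5.41%), where 0.456% of all genes were called lower, and 1 of 37 higher, where 0.308% of all genes were called higher. Without *Zdbf2*, 1 of 36 was lower (2.78%).

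By the allele they are known for, the genes called lower are both paternally expressed and the gene called higher is maternally expressed. Of 18 paternally expressed genes 17 were measured, with 11 negative and 6 positive values, a median of −0.05 and 2 called lower. Of these 2, *Zdbf2* was known to fall when the genes were chosen, which leaves *Usp29* alone. Of 17 maternally expressed genes 16 were measured, with 5 negative and 11 positive values, a median of 0.02 and 1 called higher. Of all genes, 0.456% were called lower and 0.308% higher. The 4 genes classed as depending on tissue or promoter, *Grb10*, *Ddc*, *Gnas* and *Inpp5f*, had a median of 0.03 and no call. The classes are coarse, since *Ube3a*, read from the maternal copy in neurons, is counted as maternal. Whether each class holds in adult cortex was not measured. The difference between the paternal and the maternal groups was not tested.

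**Figure D1:**
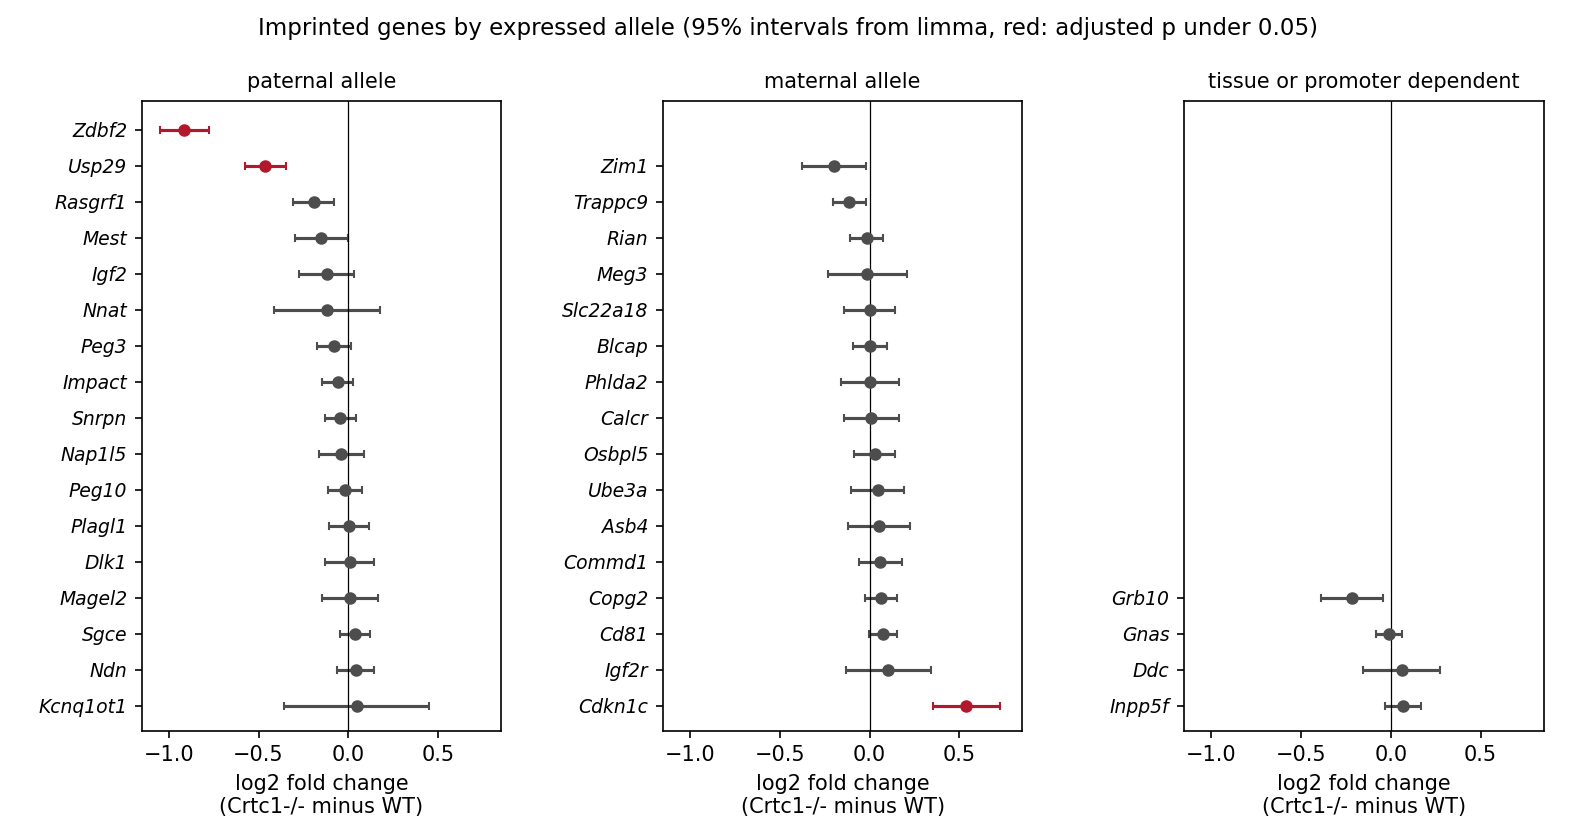
Log2 fold change (*Crtc1*-/- minus WT) of the 37 measured imprinted genes, with the 95% interval from limma, in panels for genes known to be read from the paternal copy, from the maternal copy, or from either depending on tissue or promoter. *Zdbf2* (−0.91), *Usp29* (−0.46) and *Cdkn1c* (0.54), in red, passed an adjusted p of 0.05, and all other genes lie between −0.22 and 0.10.

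*Zdbf2*, which codes for a zinc-finger protein that supports feeding and growth in newborn mice, showed the largest difference among the imprinted genes. It has 1 probe set on the array, 1456783_at. It read 7.18, 7.04, 7.14, 7.17 and 7.18 in the 5 *Crtc1*-/- mice, against 8.17, 7.97, 8.03, 7.90 and 8.22 in the 5 WT mice. Every *Crtc1*-/- mouse lay below every WT mouse, and the gap between the groups was wider than the range within either. The means were 7.14 ± 0.06 in *Crtc1*-/- mice and 8.06 ± 0.13 for WT mice (SD, n = 5 each), a log2 FC of −0.91 with a standard error of 0.06 (95% interval −1.05 to −0.78, adjusted p = 1.45e-05 from limma). On a linear scale the level in *Crtc1*-/- mice was 0.531 times that in WT mice, with an interval of 0.483 to 0.583.

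The measured genes beside *Zdbf2* were few. In the gene order of GRCm38.p6, by gene start, the nearest 10 genes are 5 on each side, and 3 of them were measured. All 3 lie on the upstream side. None of the 5 on the downstream side was measured, and some of those lie within the bounds of *Zdbf2*. *Gpr1*, a receptor gene whose body (chr1:63182571-63223278) covers the upstream start of *Zdbf2* (chr1:63200358-63314576), read 4.97 to 5.26 in *Crtc1*-/- mice and 5.03 to 5.21 in WT mice, a log2 FC of 0.05 (adjusted p = 0.868 from limma). *Eef1b2*, a translation elongation factor subunit, had a log2 FC of −0.03 (adjusted p = 0.849). *Ndufs1*, a subunit of respiratory complex I, had one of −0.06 (adjusted p = 0.705). Widening to 12 genes on each side gave 8 measured genes of 24, with 0 called in limma, which at the shares of all genes called (0.456% lower and 0.308% higher) is not a result about these genes. Of these 8, *Adam23*, a neuronal membrane protein, had the largest value, 0.09 (95% interval −0.01 to 0.19, adjusted p = 0.541), and it was singled out after its values were seen. *Gpr1* and *Adam23* are also counted below among other imprinted genes.

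**Figure D2:**
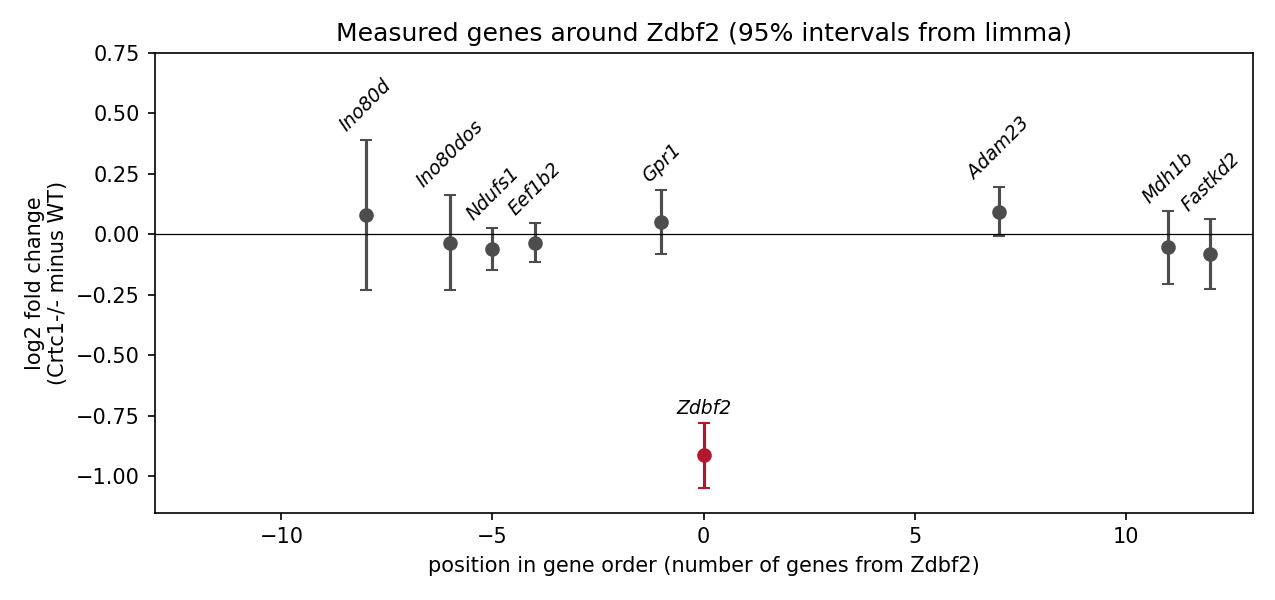
Log2 fold change (*Crtc1*-/- minus WT, y axis) with 95% intervals from limma for *Zdbf2* and the 8 measured genes within 12 genes on either side, by their place in the gene order (x axis, number of genes from *Zdbf2*). *Zdbf2* lies at −0.91, and the 8 neighbours lie between −0.08 and 0.09 with intervals that reach 0.

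*Crtc1* is a coactivator of CREB, which binds the cAMP response element, so the promoters were read for its palindrome TGACGTCA, the same on both strands. The windows run from 250 bases before to 50 bases after each annotated start in RefSeq (GRCm38.p6). *Zdbf2* has 2 annotated starts, and they are shown because 1 of them carries the element (in capitals) and the other does not.
*Zdbf2*, upstream start, chr1:63200108-63200407, plus strand: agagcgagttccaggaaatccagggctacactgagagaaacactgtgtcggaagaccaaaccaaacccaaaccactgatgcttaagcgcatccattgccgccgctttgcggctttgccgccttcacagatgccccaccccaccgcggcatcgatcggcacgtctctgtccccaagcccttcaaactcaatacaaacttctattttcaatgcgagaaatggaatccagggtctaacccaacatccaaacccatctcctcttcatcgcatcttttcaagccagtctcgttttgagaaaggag
*Zdbf2*, downstream start, chr1:63273019-63273318, plus strand: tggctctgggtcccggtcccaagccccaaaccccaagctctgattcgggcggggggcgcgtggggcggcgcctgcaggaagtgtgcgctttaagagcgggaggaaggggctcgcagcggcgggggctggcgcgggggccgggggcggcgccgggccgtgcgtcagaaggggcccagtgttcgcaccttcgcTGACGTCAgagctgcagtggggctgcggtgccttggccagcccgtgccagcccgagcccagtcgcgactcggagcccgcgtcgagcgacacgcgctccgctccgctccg
In the downstream window the element lies at chr1:63273210-63273217, its first base at position −59 from the start. That window holds 38 CpG pairs and is 74.7% G and C, and the upstream window holds 15 CpG pairs. The median over the windows of all genes was 7 CpG pairs, and 34.6% of those windows held 15 or more. The values do not tell transcripts of one start from those of the other.

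Among the windows of all 27025 genes, 588 of 32851 contain the element (1.79%). Of the 58 windows of the imprinted genes, which 34 of the 40 genes have, 4 contain it (6.90%), 1 each of *Zdbf2*, *Usp29*, *Peg3* and *Meg3*. The windows of *Usp29* and *Peg3* share 1 copy, since they overlap by 263 bases on opposite strands. The 6.90% therefore counts this copy in both windows. It also includes *Zdbf2*, whose fall was known when the genes were chosen. The 5-letter core TGACG was read on both strands and counted also where it is part of the full element. It occurs in 19 of the 58 windows, in 15 genes, and in 6837 of all 32851 windows (20.8%). Of the genes with the full element, *Zdbf2* and *Usp29* were called lower, and *Peg3* and *Meg3* were not called. The 6 genes without a window include *Cdkn1c*, the gene called higher, and *Trappc9*, so these were not searched. A match is a description of these letters and not evidence of binding.

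*Usp29*, a ubiquitin-specific protease gene of the *Peg3* cluster, was the other imprinted gene called lower. Its brighter probe set, 1419237_at, read 6.65, 6.57, 6.74, 6.70 and 6.76 in *Crtc1*-/- mice, against 7.18, 7.05, 7.09, 7.14 and 7.26 in WT mice. The groups did not overlap, and the highest *Crtc1*-/- mouse lay clearly below the lowest WT mouse. The means were 6.68 ± 0.08 in *Crtc1*-/- mice and 7.15 ± 0.08 for WT mice (SD, n = 5 each), a log2 FC of −0.46 with a standard error of 0.05 (95% interval −0.58 to −0.35, adjusted p = 0.00145 from limma). The linear ratio was 0.725, with an interval of 0.670 to 0.786. The second probe set, 1427551_at, was dim, which here means a mean below the median of all probe set means (5.30). Its mean was 3.86, and it had a log2 FC of −0.02 (adjusted p = 0.982 over probe sets). When the mean of both probe sets stood for the gene, the value was −0.24 and the call was lost (adjusted p = 0.105).

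*Usp29* (chr7:6730559-6967220) and *Peg3* (chr7:6703892-6730462) are transcribed away from each other. The starts that their promoter windows are built on, which lie inside these outer gene bounds, are 164 bases apart. The *Usp29* window is shown because the element in it, at chr7:6730590-6730597, is also the one in the *Peg3* window.
*Usp29*, chr7:6730333-6730632, plus strand: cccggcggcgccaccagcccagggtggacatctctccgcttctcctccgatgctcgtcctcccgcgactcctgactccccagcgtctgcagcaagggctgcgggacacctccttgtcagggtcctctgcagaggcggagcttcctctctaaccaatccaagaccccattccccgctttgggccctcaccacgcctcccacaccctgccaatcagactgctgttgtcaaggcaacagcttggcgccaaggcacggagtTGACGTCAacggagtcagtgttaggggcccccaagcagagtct
The capitals again mark TGACGTCA. Its first base lies at position 8 of the transcript, counted from 1 at the start of *Usp29*, and at position −178 from the start of *Peg3*. The *Usp29* window holds 17 CpG pairs.

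*Peg3*, a paternally expressed zinc-finger gene that shares this promoter region, did not pass. It read 11.09, 11.22, 11.14, 11.11 and 11.26 in *Crtc1*-/- mice, against 11.21, 11.25, 11.26, 11.22 and 11.28 in WT mice. The groups overlapped. The log2 FC was −0.08 (95% interval −0.17 to 0.02, adjusted p = 0.618 from limma). The interval of *Usp29* and that of *Peg3* share no value, but the difference between the genes was not tested. Within each mouse, the *Usp29* value minus the *Peg3* value lay between −4.65 and −4.40 in *Crtc1*-/- mice, against −4.19 to −4.02 in WT mice, and only the shift between these ranges, −0.38 on average, can be read, since levels of different probe sets cannot be compared. The other 4 probe sets of *Peg3* had log2 fold changes between −0.13 and 0.06, none past the threshold.

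*Zim1*, the maternally expressed zinc-finger gene of the same cluster, was dim. It read 3.04 to 3.33 in *Crtc1*-/- mice and 3.23 to 3.65 in WT mice. Its log2 FC was −0.20 (95% interval −0.38 to −0.02, adjusted p = 0.430 from limma). Within each mouse, *Usp29* minus *Zim1* lay between 3.37 and 3.66 in *Crtc1*-/- mice, against 3.40 to 3.95 in WT mice, and these ranges overlapped. *Zim2* and *Zim3*, further genes of this cluster from the list of other imprinted genes, were also dim and had values of 0.05 and 0.02, neither past the threshold.

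**Figure D3:**
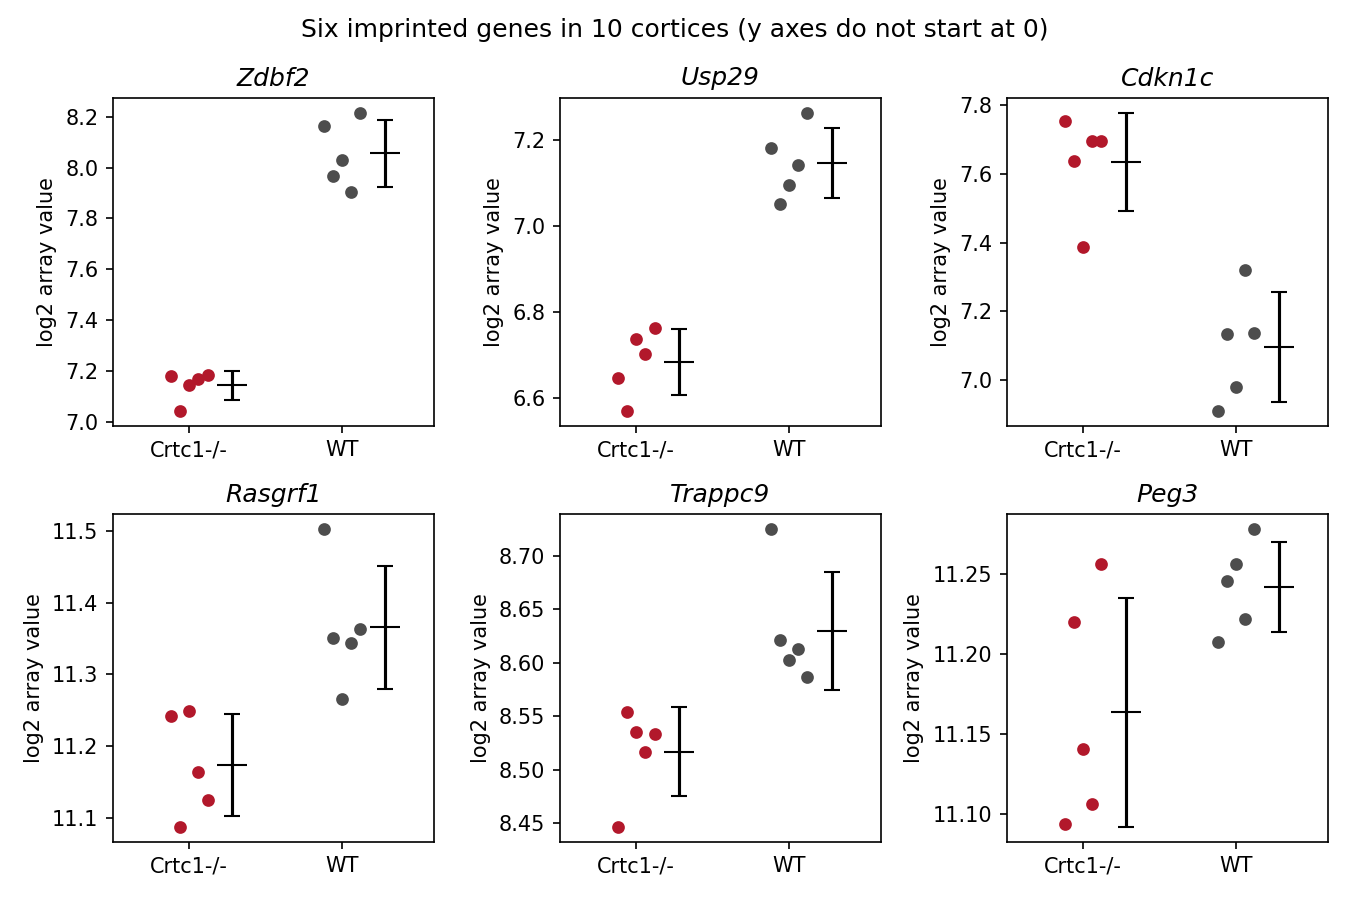
Log2 array values of 6 imprinted genes in the 5 *Crtc1*-/- mice (red) and the 5 WT mice (grey), 1 point per mouse, with mean and SD beside each group. Each panel has its own y axis, none of which starts at 0. The groups do not overlap for *Zdbf2*, *Usp29*, *Cdkn1c*, *Rasgrf1* and *Trappc9*, and they overlap for *Peg3*.

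*Cdkn1c*, which codes for the cyclin-dependent kinase inhibitor p57Kip2 and is read from the maternal copy, was the imprinted gene called higher. Its single probe set, 1417649_at, read 7.75, 7.64, 7.39, 7.70 and 7.70 in *Crtc1*-/- mice, against 6.91, 7.13, 6.98, 7.32 and 7.14 in WT mice. Every *Crtc1*-/- mouse lay above every WT mouse, though the lowest *Crtc1*-/- mouse came close to the highest WT mouse. The means were 7.63 ± 0.14 in *Crtc1*-/- mice and 7.10 ± 0.16 for WT mice (SD, n = 5 each), a log2 FC of 0.54 with a standard error of 0.09 (95% interval 0.35 to 0.73, adjusted p = 0.0129 from limma). The linear ratio was 1.45, with an interval of 1.27 to 1.65.

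The call for *Cdkn1c* was lost when the mean of the oligodendrocyte or of the hippocampal markers entered the fit. With the oligodendrocyte marker mean as a covariate the log2 FC was 0.58 (adjusted p = 0.136 from limma), and with the hippocampal marker mean it was 0.52 (adjusted p = 0.347). The size of the difference changed little, and the call did not hold. The hippocampal mean did not overlap between the genotypes (5.95 to 6.07 in *Crtc1*-/- mice, 6.08 to 6.26 in WT mice). That fit therefore cannot tell the marker mean from the genotype. With either covariate fewer genes were called over all genes, so neither fit decides the part of these markers in *Zdbf2*, *Usp29* or *Cdkn1c*. *Zdbf2* and *Usp29* stayed past the threshold in both fits, *Zdbf2* at −0.92 (adjusted p = 0.00118) and −1.03 (adjusted p = 0.000441), and *Usp29* at −0.51 (adjusted p = 0.0219) and −0.52 (adjusted p = 0.0456).

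The other genes of the cluster around *Cdkn1c* (chr7:143458339-143461059) were not called. *Kcnq1ot1*, the paternally expressed noncoding RNA that silences this cluster on its own copy, read 6.39 to 7.12 in *Crtc1*-/- mice and 6.30 to 7.32 in WT mice. Its log2 fold change of 0.05 came with a wide interval, −0.36 to 0.45, and the 5 other probe sets lay between −0.03 and 0.15. *Cd81*, a tetraspanin of the cell surface, read 11.80 to 11.87 in *Crtc1*-/- mice and 11.72 to 11.81 in WT mice, a log2 FC of 0.08 (adjusted p = 0.532 from limma). The ranges of *Cd81* overlapped at their edges. *Osbpl5*, an oxysterol-binding protein gene, had a log2 FC of 0.03 (adjusted p = 0.926). *Phlda2*, which restrains placental growth, and *Slc22a18*, a membrane transporter gene, had values of 0.005 and −0.0003.

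*Rasgrf1* and *Trappc9* were lower without overlap but did not pass. In all, 4 of the 37 genes had every *Crtc1*-/- mouse below every WT mouse (10.8%), where this held for 2.04% of all genes, and without *Zdbf2*, whose fall was known when the genes were chosen, it was 3 of 36 (8.33%). In the other direction, 1 gene, *Cdkn1c*, had every *Crtc1*-/- mouse above every WT mouse, which 1.1% of all genes showed. Groups without overlap always give the smallest two-sided exact permutation p that 5 against 5 mice allow, 0.00794. That p was therefore fixed for these 5 genes and says nothing more about them. At an unadjusted p under 0.05, 7 genes were lower (18.9%, against 5.53% of all genes) and 1 higher (4.33% of all genes were), and without *Zdbf2* the lower ones were 6 of 36 (16.7%). The 7 were *Zdbf2*, *Usp29*, *Rasgrf1*, *Trappc9*, *Grb10*, *Zim1* and *Mest*.

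*Rasgrf1*, a calcium-responsive activator of Ras that is read from the paternal copy, read 11.24, 11.09, 11.25, 11.16 and 11.13 in *Crtc1*-/- mice, against 11.50, 11.35, 11.27, 11.34 and 11.36 in WT mice. The groups nearly touched, the highest *Crtc1*-/- mouse at 11.25 and the lowest WT mouse at 11.27. The means were 11.17 ± 0.07 in *Crtc1*-/- mice and 11.37 ± 0.09 for WT mice (SD, n = 5 each), a log2 FC of −0.19 with a standard error of 0.05 (95% interval −0.31 to −0.08, adjusted p = 0.165 from limma). Its other probe sets had log2 fold changes of −0.24 (1422600_at, adjusted p = 0.220 over probe sets) and −0.14 (1424734_at, adjusted p = 0.797). Thus all 3 probe sets had negative values. With a trended and robust variance prior the adjusted p of the gene was 0.0384.

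*Trappc9*, a subunit of the TRAPP vesicle-tethering complex with a bias to the maternal copy in mouse brain, read 8.45, 8.55, 8.53, 8.52 and 8.53 in *Crtc1*-/- mice, against 8.72, 8.62, 8.60, 8.61 and 8.59 in WT mice. The difference was small beside that of *Zdbf2*. The means were 8.52 ± 0.04 in *Crtc1*-/- mice and 8.63 ± 0.05 for WT mice (SD, n = 5 each), a log2 FC of −0.11 (95% interval −0.20 to −0.02, adjusted p = 0.352 from limma). The dimmer probe sets of *Trappc9* had values of −0.01 and 0.08.

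Growth factor genes and their regulators did not pass. *Grb10*, an adaptor that dampens insulin signalling and is read from the paternal copy in neurons and the maternal copy elsewhere, read 7.74 to 8.00 in *Crtc1*-/- mice and 7.90 to 8.32 in WT mice, a log2 FC of −0.22 (95% interval −0.39 to −0.04, adjusted p = 0.351 from limma). Its dimmer probe sets had −0.03 and 0.04. *Igf2*, the fetal growth factor, had a log2 FC of −0.12 (adjusted p = 0.654). *Igf2r*, the receptor that clears *Igf2*, read 8.09 to 8.38 in *Crtc1*-/- mice and 7.73 to 8.42 in WT mice. Its log2 FC was 0.10 with an interval of −0.13 to 0.34, and without single mice it ran from 0.001 to 0.17. The WT range held the whole *Crtc1*-/- range. *Plagl1*, a zinc-finger transcription factor of the imprinted network, had a log2 FC of 0.004, and *Dlk1*, a membrane protein related to Notch ligands, had 0.007 at a dim level.

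The genes of the *Snrpn*-*Ube3a* cluster, known from Prader-Willi and Angelman syndromes in humans, had small values and no call. *Ndn*, a MAGE-family protein of neurons, read 11.62 to 11.76 in *Crtc1*-/- mice and 11.56 to 11.71 in WT mice, a log2 FC of 0.04 (adjusted p = 0.867 from limma). *Ube3a*, a ubiquitin ligase read from the maternal copy in neurons, had a log2 FC of 0.05 (adjusted p = 0.898). Neither separated the genotypes. *Snrpn*, a splicing protein, had −0.05 (adjusted p = 0.812) on the 1 probe set that names it alone, and 6 more that also name *Snurf* were left out by the rule. *Magel2*, a MAGE-family partner of ubiquitin ligases, had 0.01 at a dim level.

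The noncoding RNAs of the *Dlk1*-*Meg3* cluster did not pass. *Meg3* read 12.08, 12.02, 12.12, 11.81 and 12.03 in *Crtc1*-/- mice, against 12.08, 11.95, 12.37, 11.98 and 11.75 in WT mice. The WT mice spanned the *Crtc1*-/- range on both sides. The log2 FC was −0.01 (95% interval −0.23 to 0.21, adjusted p = 0.982 from limma), and its 11 probe sets lay between −0.10 and 0.14. *Rian*, a host of small nucleolar RNAs, had a log2 FC of −0.02 (adjusted p = 0.944). The first of the 2 *Meg3* windows is shown because it holds the element and its gene was not called.
*Meg3*, chr12:109540746-109541045, plus strand: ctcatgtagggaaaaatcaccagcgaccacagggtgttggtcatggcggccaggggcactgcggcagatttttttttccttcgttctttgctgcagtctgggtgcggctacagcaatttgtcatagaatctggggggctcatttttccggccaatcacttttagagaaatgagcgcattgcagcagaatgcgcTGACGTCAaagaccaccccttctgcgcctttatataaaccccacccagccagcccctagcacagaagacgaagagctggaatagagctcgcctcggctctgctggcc
The capitals mark TGACGTCA, whose first base lies at position −57 from the start, close to the −59 of *Zdbf2*. The window holds 13 CpG pairs.

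The remaining genes gave small values. *Mest*, a hydrolase-fold protein gene read from the paternal copy, read 7.37 to 7.46 in *Crtc1*-/- mice and 7.34 to 7.70 in WT mice, a log2 FC of −0.15 (95% interval −0.30 to −0.005, adjusted p = 0.483 from limma). Its neighbour *Copg2*, a coat protein gene of transport vesicles, had 0.06 (adjusted p = 0.714). *Nnat*, a small membrane protein of the endoplasmic reticulum in neurons, varied widely between mice, with values between 7.80 and 8.56 in *Crtc1*-/- mice, against 8.02 to 8.48 in WT mice, with a log2 FC of −0.12 (95% interval −0.41 to 0.17). *Blcap*, the gene that holds *Nnat* within an intron, had 0.003. None of these genes separated the genotypes.

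*Inpp5f*, a phosphoinositide phosphatase gene, read 9.68 to 9.79 in *Crtc1*-/- mice and 9.58 to 9.77 in WT mice, a log2 FC of 0.07 (adjusted p = 0.714 from limma). *Impact*, an inhibitor of the stress kinase Gcn2, had −0.06 (adjusted p = 0.714), and *Nap1l5*, of the nucleosome assembly protein family, had −0.04 (adjusted p = 0.893). *Ddc*, the decarboxylase that makes dopamine and serotonin, had 0.06, *Commd1*, a regulator of copper transport, had 0.06 and *Sgce*, the epsilon-sarcoglycan gene, had 0.04. The groups overlapped for each of these genes. *Gnas*, the stimulatory G protein alpha subunit gene, had −0.01 (95% interval −0.08 to 0.06). *Peg10*, a gene derived from a retrotransposon, *Calcr*, the calcitonin receptor gene, and *Asb4* were dim and had −0.02, 0.01 and 0.05.

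Over all 96 probe sets that name 1 of these genes alone, the count of calls did not grow. The same probe sets of *Zdbf2* and *Usp29* were called lower and that of *Cdkn1c* higher, at an adjusted p under 0.05 over 45037 probe sets, where 0.187% of all probe sets were called lower and 0.115% higher. Of the 37 genes, 22 have several probe sets and 15 have 1, so for *Zdbf2* and *Cdkn1c* no second probe set could be set beside the first.

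**Figure D4:**
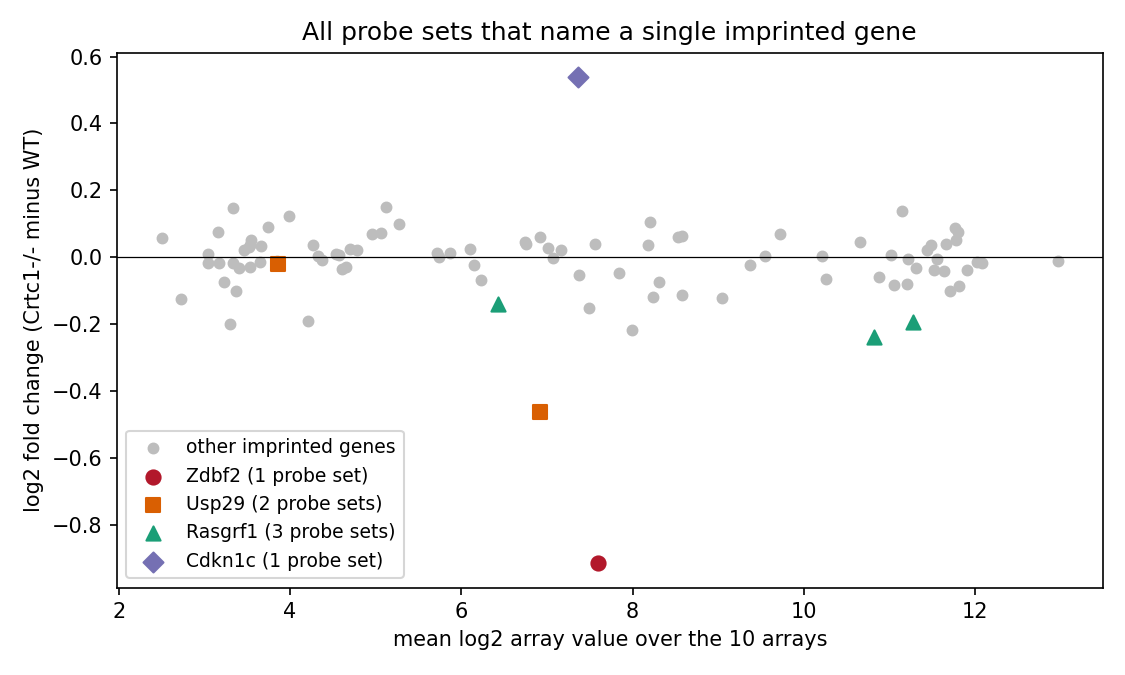
Log2 fold change (*Crtc1*-/- minus WT, y axis) of all 96 probe sets that name a single imprinted gene, against the mean log2 array value over the 10 arrays (x axis), which shows how bright a probe set was and not how abundant a transcript was. The *Zdbf2* probe set (−0.91), the brighter of 2 *Usp29* probe sets (−0.46) and the *Cdkn1c* probe set (0.54) stand apart, the dim *Usp29* probe set lies at −0.02, and the 3 *Rasgrf1* probe sets lie between −0.24 and −0.14.

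Further lists were read, the genes that write, protect or read imprints, and other genes imprinted in mouse. Of 32 writers and readers 30 were measured, with 14 negative and 16 positive values and a median of 0.01. None passed in the limma fit, and at an unadjusted p under 0.05 there was 1 lower (3.33%, against 5.53% of all genes) and 1 higher. *Zfp57*, the zinc-finger protein that protects imprints in the early embryo, had −0.24 at a dim level (adjusted p = 0.471). *Rest*, a repressor of neuronal genes, read 6.20 to 6.61 in *Crtc1*-/- mice, with a mean of 6.39 ± 0.18 against 6.08 ± 0.09 for WT mice (SD, n = 5 each), a log2 FC of 0.31 (adjusted p = 0.138 from limma). *Tet2*, a methylcytosine dioxygenase, had −0.15 (adjusted p = 0.541), and *Mbd3*, a subunit of the NuRD complex, had −0.08 (adjusted p = 0.596).

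Of 49 other imprinted genes 39 were measured, with 17 negative and 22 positive values and a median of 0.02. None passed, and at an unadjusted p under 0.05 there were 2 lower (5.13%, against 5.53% of all genes) and 2 higher, where 4.33% of all genes were higher. These 4 were *Gab1*, an adaptor of growth factor receptors (0.22, adjusted p = 0.165 from limma), *Cntn3*, a contactin of neurons (0.29, adjusted p = 0.366), *Slc38a4*, an amino acid transporter (−0.20 at a dim level, adjusted p = 0.270), and *Ppp1r9a*, the actin-binding protein neurabin (−0.09, adjusted p = 0.493).

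*Crtc1* itself matched the labels in every mouse, at 5.96 to 6.60 in *Crtc1*-/- mice and 9.51 to 9.86 in WT mice. The 10 arrays correlated at 0.994 to 0.998 with each other, and their medians differed by at most 0.03. The mean of 11 markers of cortical neurons was 9.99 to 10.05 in *Crtc1*-/- mice and 10.01 to 10.11 in WT mice. Of the 11, 9 were negative, 0 were called, and 4 were lower at an unadjusted p under 0.05 (36.4%, against 5.53% of all genes). At the same threshold 1 of the 11 was higher, *Rorb* (0.20). The marker lists of hippocampus and oligodendrocytes were read for neighbouring tissue and glia. The mean of 11 hippocampal markers was 5.95 to 6.07 in *Crtc1*-/- mice and 6.08 to 6.26 in WT mice, without overlap. Of the 11, 7 were negative and 2 were called lower (18.2%, against 0.456% of all genes). The mean of 11 oligodendrocyte markers was 10.11 to 10.41 in *Crtc1*-/- mice and 9.84 to 10.15 in WT mice, so these groups overlapped. All 11 were positive, 0 were called, and 6 of the 11 were higher at an unadjusted p under 0.05, where 4.33% of all genes were higher. The mean of the hippocampal markers thus lay lower in *Crtc1*-/- mice, though 4 of the 11 were positive and 7 of the 11 were dim. *Neurod6* (−0.19) is counted in both the hippocampal and the cortical neuron list. The oligodendrocyte values leaned higher without a call. Hypothalamic markers, from a region rich in imprinted transcripts, had a mean of 4.66 to 4.93 in *Crtc1*-/- mice and 4.64 to 4.94 in WT mice, and 10 of the 12 were dim. The choroid plexus mean was 3.91 to 4.10 in *Crtc1*-/- mice and 3.86 to 4.13 in WT mice, with 9 of 10 dim, and the meningeal mean was 7.12 to 7.58 in *Crtc1*-/- mice and 7.28 to 7.40 in WT mice. The fits with the hippocampal and oligodendrocyte means cannot decide the part of these markers in the values above, which was not tested in another way.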

How the data were processed

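Gene expression was measured in cortex of 5 *Crtc1*-/- and 5 WT mice on 10 arrays, each taken as 1 mouse as the labels number them. The labelled material came from 300 ng of RNA per array. The authors ran a quality control in RACE, with a rule to exclude arrays above a set error limit. Whether any array was excluded is not stated. The deposited values are log2 values, 1 per probe set and array, already normalized by the authors. The background correction and normalization are not given in the sources used here, and neither are scan dates or detection calls, so "dim" means a mean below the median of all probe sets (5.30). The number of arrays limits the precision.

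Of 45101 probe sets, 64 controls were left out. The annotation names 1 gene for 34945 probe sets, several for 932 and none for 9160. Each of 18193 genes was read through its brightest probe set. *Crtc1*-/- minus WT was fitted in limma 3.58.1 (R 4.3.3; lmFit, then eBayes), with Benjamini-Hochberg adjustment over all genes or all 45037 probe sets at 0.05. The fit was tested on simulated arrays with known changes. Promoter windows and coordinates are those of RefSeq, GRCm38.p6, matched by gene, while the array annotation names no build.

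Members and lists were chosen with earlier results of these data known. The expressed allele of each gene was taken from general knowledge. Named in full are genes past the threshold or without overlap between the groups, the 4 with the largest value in each direction, the measured genes within 5 of *Zdbf2*, and in each further list the 4 with the smallest p. Marker lists were those of cortical neurons, oligodendrocytes, astrocytes, endothelium, microglia, meninges, choroid plexus, hippocampus, hypothalamus, striatum and midbrain monoamine neurons. Mean differences of the lists not described in the results were 0.07 for astrocytes, 0.03 for endothelium, −0.02 for microglia, −0.06 for striatum and −0.04 for midbrain monoamine neurons. Alternatives were quantile normalization, median centring, other choices of probe set, a filter on dim probe sets, a trended and robust prior, the replicate number as a block, marker means as covariates and leaving out each array. The covariate fits of *Usp29* and *Cdkn1c* were added after the values were seen.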

Additional observations from a re-analysis of the deposited data

Results flagged for a closer look

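Among 74 groups of 5 mice (37 genes in each genotype), 4 held 1 mouse set apart from the rest by Dixon's criterion for 5 values (5.41%), and chance sets apart about 1 group in 20. *Phlda2* read 4.06 in *Crtc1*-/- mouse 1, with the nearest other *Crtc1*-/- mouse at 4.38. *Commd1* read 8.39 in *Crtc1*-/- mouse 3, with the nearest at 8.58. *Gnas* read 12.95 in WT mouse 3, with the nearest at 12.97. *Trappc9* read 8.72 in WT mouse 1, with the nearest at 8.62. None of these 4 genes passed the threshold, and no group of *Zdbf2*, *Usp29* or *Cdkn1c* held such a mouse.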

How the results depend on the processing

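*Zdbf2*, *Usp29* and *Cdkn1c* kept their direction in all alternatives. *Zdbf2* stayed past the threshold in all of them, and with single mice left out ran from −0.95 to −0.87. *Usp29* was lost only with the mean of its probe sets (−0.24), which left 1 gene called lower, and *Cdkn1c* only with the oligodendrocyte (0.58) or hippocampal (0.52) marker mean as a covariate, which left 0 called higher. Of the 34 other genes, *Rasgrf1* passed, with a trended and robust prior, and no other passed in an alternative. With either covariate the calls among the 37 were *Zdbf2* and *Usp29*. Over all genes, calls were 12 lower and 6 higher with the hippocampal covariate, 27 and 14 with the oligodendrocyte covariate, 36 and 26 with the replicate block, and 148 and 88 with a trended and robust prior, against 83 and 56. Leaving out single mice gave 55 to 69 lower, the fewest without *Crtc1*-/- mouse 2 or 3 (55 each), and 33 to 51 higher, the fewest without WT mouse 3 (33), 2 (35) or 4 (37). With single mice left out the median of the 37 genes ran from −0.019 to 0.0088. The replicate numbers did not pair the mice (correlations of deviations between −0.26 and 0.06, with 0 of 5 mice closest to its own number), and the block changed no call of the 37 genes.

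Signs changed in 17 genes, none with a reported value above 0.0622 in size. Quantile normalization gave −0.0088 for *Dlk1*, 0.0043 for *Gnas*, −0.0034 for *Magel2*, −0.0095 for *Phlda2* and 0.0026 for *Slc22a18*. Median centring gave −0.0012 for *Blcap*. The mean of all probe sets gave −0.019 for *Ddc*, −0.091 for *Dlk1*, 0.041 for *Gnas*, −0.00024 for *Ndn* and −0.0011 for *Plagl1*. Leaving out probe sets ending in _s_at or _x_at gave −0.00053 for *Commd1*, −0.19 for *Dlk1* and 0.013 for *Gnas*. With single mice left out, values ran from −0.015 to 0.098 for *Asb4*, −0.027 to 0.021 for *Blcap*, −0.036 to 0.049 for *Calcr*, −0.023 to 0.12 for *Ddc*, −0.038 to 0.044 for *Dlk1*, −0.060 to 0.19 for *Kcnq1ot1*, −0.029 to 0.055 for *Magel2*, −0.083 to 0.072 for *Meg3*, −0.035 to 0.0024 for *Peg10*, −0.030 to 0.075 for *Phlda2*, −0.021 to 0.038 for *Plagl1*, −0.032 to 0.0046 for *Rian*, −0.048 to 0.039 for *Slc22a18* and −0.0061 to 0.072 for *Ube3a*. The causes were not tested.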
